A study of Mus musculus with 3 samples.

Results

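Chemokine genes that lie outside the large gene clusters were examined for histone 3 lysine 4 monomethylation (H3K4me1) in pancreatic islets exposed to proinflammatory cytokines. The 10 genes were Ccl20, Ccl17, Ccl22, Cx3cl1, Cxcl12, Cxcl13, Cxcl14, Cxcl16, Ccl25 and Ccl28. They were taken by name, and 9 of them were found by symbol in the GENCODE M1 annotation of mm9, among 22254 protein-coding genes on chromosomes 1 to 19 and X. For each gene, every enriched region that overlapped the gene or had an edge within 20 kb of any of its annotated transcriptional start sites (TSS) was counted. This gave 19 different regions of the 65709 in the list. A TSS inside a region was called covered. A gene with no covered TSS was called flanked where a region lay within 2 kb of a TSS, and bare where none did.

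The list comes from 1 H3K4me1 ChIP-seq library. Islets of CD1 mice aged 8 to 12 weeks recovered after isolation and were then cultured for 4 days in RPMI with IFNγ at 1.6 ng/ml, Il-1β at 0.25 ng/ml and TNFα at 0.16 ng/ml. Strain and age are those of the labels, while the methods of the study name ICR mice with a narrower age range for the ChIP. Islets of several mice were used and the DNA of 4 ChIP experiments was pooled before sequencing, so the library has no replicate and no error between replicates can be given. The RNA libraries of untreated and of cytokine treated islets were not analysed here, nor was H3K4me1 in untreated islets. All values therefore describe islets after cytokine exposure, and none is a change. The list holds positions only, with no read count or height, so the depth behind a region is unknown and a gene without a region may fall short of the calling threshold.

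Chemokines are small secreted or membrane-bound proteins that bind G protein-coupled receptors on leukocytes and direct their migration. Some are produced constantly and organise lymphoid tissue and homing, whereas others are switched on by inflammatory signals through NF-κB and interferon regulatory factors. In type 1 diabetes, chemokines released in the islet attract immune cells towards the β-cells. H3K4me1 is found at active and poised enhancers and beside active promoters. At the centre of a strongly active promoter it can give way to trimethylation, so a start site without H3K4me1 need not be silent.

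A region covered at least 1 TSS of 5 of the 9 genes: Cx3cl1, Cxcl12, Cxcl14, Cxcl16 and Ccl25. Over all protein-coding genes a TSS was covered in 39.2%. None of the 9 genes was flanked, against 22.9% of all protein-coding genes. The other 4 genes, Ccl20, Ccl17, Ccl22 and Cxcl13, had a bare start, as had 37.9% of all protein-coding genes. Each of the 9 genes had at least 1 region in the gene or within 20 kb of a TSS, compared with 76.4% of all protein-coding genes. The number of regions ranged from 1 to 4 per gene with a median of 2, which is also the median over all protein-coding genes. With 9 genes and 1 library these counts are a description, and no difference from the other genes was tested.

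**Figure D1:**
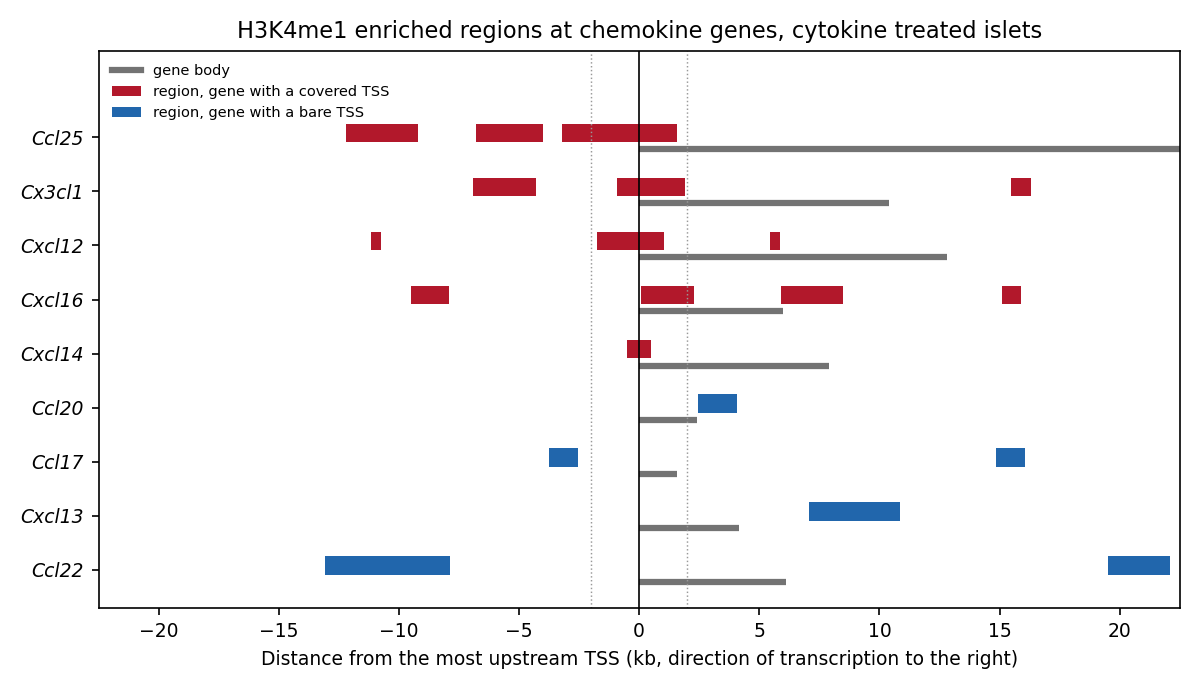
Position of each H3K4me1 enriched region (coloured bars) relative to the most upstream TSS of 9 chemokine genes in kb, with the direction of transcription to the right and the gene body as a grey line; the body of Ccl25 runs beyond the right edge, and dotted lines mark 2 kb. Regions lie over or within 0.1 kb of the start of the 5 upper genes, whereas the nearest region of the 4 lower genes is 2.45 to 7.89 kb away.

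The sequence just before the start differed between the genes with a covered and with a bare TSS. The 100 bases that end 1 base before the most upstream TSS are shown for 8 genes, read from mm9 on the gene's strand, because the number of CpG dinucleotides separates them. Capitals mark each CpG. Cxcl16 is not shown, since these bases overlap exons of Zmynd15.
Ccl17, bare, chr8:97334253-97334352, plus strand: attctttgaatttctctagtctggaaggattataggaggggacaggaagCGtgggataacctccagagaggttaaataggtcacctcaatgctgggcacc
Cxcl13, bare, chr5:96385845-96385944, plus strand: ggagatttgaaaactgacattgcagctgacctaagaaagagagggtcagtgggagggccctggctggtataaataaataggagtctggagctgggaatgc
Ccl20, bare, chr1:83113241-83113340, plus strand: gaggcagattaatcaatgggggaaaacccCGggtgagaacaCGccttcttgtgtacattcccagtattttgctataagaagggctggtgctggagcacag
Ccl22, bare, chr8:97269390-97269489, plus strand: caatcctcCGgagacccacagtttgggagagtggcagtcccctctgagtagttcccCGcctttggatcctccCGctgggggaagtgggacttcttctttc
Cx3cl1, covered, chr8:97295809-97295908, plus strand: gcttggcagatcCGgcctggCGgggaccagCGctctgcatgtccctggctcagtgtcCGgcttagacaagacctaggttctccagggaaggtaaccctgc
Cxcl12, covered, chr6:117118453-117118552, plus strand: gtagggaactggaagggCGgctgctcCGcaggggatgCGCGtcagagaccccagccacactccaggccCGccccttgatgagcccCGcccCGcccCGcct
Cxcl14, covered, chr13:56397913-56398012, minus strand: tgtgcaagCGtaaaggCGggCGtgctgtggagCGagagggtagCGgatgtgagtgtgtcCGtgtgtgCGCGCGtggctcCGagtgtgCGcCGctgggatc
Ccl25, covered, chr8:4325110-4325209, plus strand: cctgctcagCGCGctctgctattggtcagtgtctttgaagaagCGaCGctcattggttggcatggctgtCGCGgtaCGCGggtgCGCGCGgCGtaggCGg
The 4 bare starts hold 0 to 3 CpG in these 100 bases and the 4 covered ones 4 to 13, so Ccl22 (3) and Cx3cl1 (4) are next to each other in this order. The bases shown for Ccl25 (13) lie between its first TSS and that of Elavl1, 110 bp away on the other strand.

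In the 500 bp centred on the most upstream TSS, the ratio of observed to expected CpG was 0.12 in Ccl17, 0.16 in Ccl20, 0.20 in Cxcl13 and 0.24 in Ccl22. It was 0.52 in Cxcl16, 0.56 in Cx3cl1, 0.76 in Cxcl12, 0.83 in Cxcl14 and 1.18 in Ccl25. The 4 bare genes were thus below all 5 genes with a covered TSS. In Cxcl16 the most upstream TSS, where this ratio was taken, is itself not covered. Its 500 bp also lie within the span of Zmynd15. A start was called CpG-rich at a ratio of at least 0.6 with at least 50% GC, which held for Cxcl12, Cxcl14 and Ccl25. The same order of covered and bare genes was present across the genome. Of the 10604 CpG-rich starts of protein-coding genes, 55.0% were covered and 9.54% were bare. Of the 11650 CpG-poor starts, 24.8% were covered and 63.8% were bare. Flanked genes made up 35.5% of the CpG-rich and 11.4% of the CpG-poor starts. Their median ratio was 0.80, above the 0.73 of covered genes. Of the 5948 genes with a ratio below 0.25, where the 4 bare chemokine genes fell, 12.0% were covered and 80.7% were bare. The separation of covered from bare genes among the 9 therefore has the same direction as that over all genes.

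**Figure D2:**
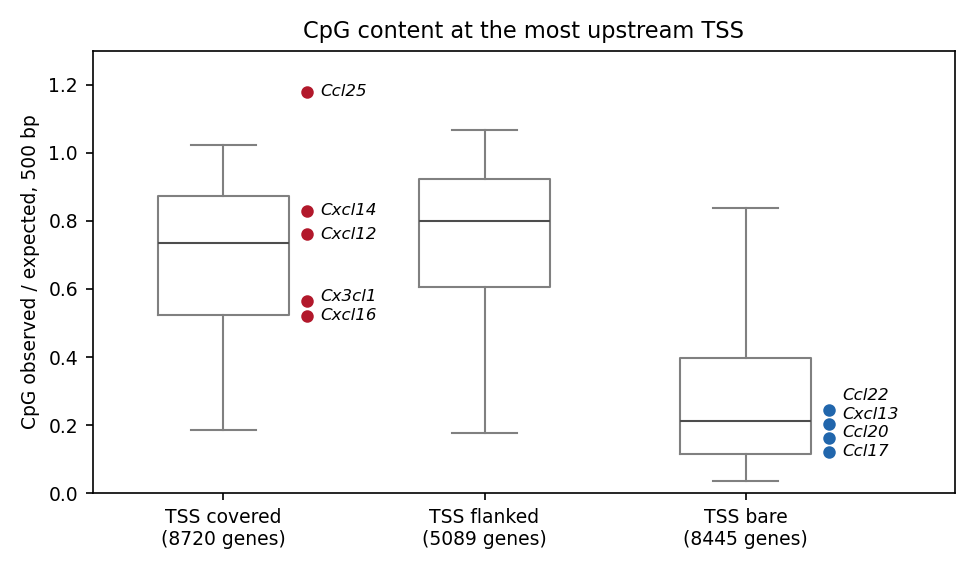
Ratio of observed to expected CpG in 500 bp around the most upstream TSS, for all protein-coding genes by whether a region covers, flanks or leaves bare their TSS (boxes: median and quartiles; whiskers: 5th and 95th percentile) and for each chemokine gene (points). The covered chemokine genes lie from 0.52 to 1.18 and the bare ones from 0.12 to 0.24, against medians of 0.73 and 0.21 over all covered and bare genes.

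Cx3cl1 and Cxcl16 encode the membrane-bound chemokines, which act as adhesion molecules on the cell surface and are released by proteases. Cx3cl1 (chr8:97295909-97306323 in mm9, plus strand) had all 3 of its TSS inside a region of 2.8 kb. The region ran from 97295001 to 97297800, which is 908 bp upstream and 1891 bp downstream of the first TSS, and it overlapped 326 bp of exon and 1566 bp of intron. Regions covered 70.0% of the 4 kb around this TSS, at the 89.4 percentile of protein-coding genes. Another region, of 2.6 kb, ended 4309 bp upstream, and one of 0.8 kb lay 15.5 kb downstream, past the end of the gene. Both lay outside annotated genes, and the nearest protein-coding TSS of each was that of Cx3cl1.

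Cxcl16 (chr11:70267485-70273486, minus strand) was counted with 4 regions, the most of the 9 genes. The one at its start, from 70271201 to 70273400, was 2.2 kb wide and covered 2 of its 3 TSS. The TSS that it left out, at 70273486, is that of the annotated protein-coding transcript and lay 86 bp beyond the edge, which is less than the 200 bp grid of the list. The covered TSS belong to transcripts annotated as non-coding or as targets of nonsense-mediated decay. The same region also covered a TSS of Zmynd15, which starts 25 bp from the nearest TSS of Cxcl16 on the other strand. Of the remaining regions, that of 2.6 kb at the 3′ end of Cxcl16 covered a TSS of Med11, a subunit gene of the Mediator complex. The region of 1.6 kb beginning 7915 bp upstream lay nearest to Zmynd15 and that of 0.8 kb, 15.1 kb downstream, nearest to Arrb2. The region at the start was thus the only one of the 4 that held a TSS of Cxcl16, beside that of Zmynd15.

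Cxcl12, Cxcl14 and Ccl25 are counted among the homeostatic chemokines, which are produced without inflammation. Cxcl12 (chr6:117118553-117131385, plus strand) retains haematopoietic cells in their niche. All 3 of its TSS were covered by a region of 2.8 kb, chr6:117116801-117119600, which reached 1752 bp upstream and 1047 bp downstream of the first. Its other 2 regions were each 400 bp wide, 1 of them 10.8 kb upstream outside annotated genes and 1 from 5448 to 5847 bp downstream, in sequence annotated as UTR. These were the narrowest of the 19 regions. The 4 kb around the TSS were covered at 70.0%, as in Cx3cl1, but the 40 kb around it only at 9.0%, compared with a median of 7.50% over all protein-coding genes.

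Cxcl14 (chr13:56390008-56397912, minus strand) is a chemokine of epithelia. Its only region, chr13:56397401-56398400, was 1.0 kb wide and covered both TSS. It extended 488 bp upstream and 511 bp downstream of the first TSS, and regions covered 2.50% of the 40 kb around it, the lowest share of the 9 genes and at the 32.5 percentile. The mark at Cxcl14 was thus limited to the start, with no further region within 20 kb.

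Ccl25, which attracts thymocytes and gut-homing T cells, had the largest covered share of the 9 genes on either scale. It is annotated by 2 overlapping gene records of the same symbol, joined here to chr8:4325210-4360020 (plus strand). Of its 7 TSS, 6 lay in a region of 4.8 kb, chr8:4322001-4326800, and that at 4349588 was not covered. Regions covered 89.8% of the 4 kb and 26.5% of the 40 kb around the first TSS, at the 96.2 and 86.0 percentiles. This start is shared: the first TSS of Ccl25 lies 110 bp from that of Elavl1, the gene of an RNA-binding protein, which is transcribed on the other strand. The same region covered the Elavl1 TSS, and the other 2 regions of Ccl25, of 3.0 and 2.8 kb, lay in Elavl1 introns and nearest to its TSS. A list of regions cannot assign H3K4me1 at such a start to 1 of the genes.

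A region that covered a TSS of another protein-coding gene as well was thus found at 2 of the 5 covered starts. Of the 8720 protein-coding genes with a covered TSS, 15.4% shared the covering region in this way. Cx3cl1, Cxcl12 and Cxcl14 are the members whose covering region held their own TSS alone.

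Ccl20, Ccl17, Ccl22 and Cxcl13 attract lymphocytes and dendritic cells. Ccl20 (chr1:83113341-83115742, plus strand) is the ligand of Ccr6 on Th17 cells and B cells. Its only region, chr1:83115801-83117400, was 1.6 kb wide, began 2452 bp downstream of the nearer of its 2 TSS and lay past the end of the gene, outside annotated genes. Neither the gene nor the 2 kb on either side of its TSS held a region. The distance was short for a bare gene, at the 2.52 percentile of the 8445 protein-coding genes with a bare start.

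Ccl17 and Ccl22 both bind Ccr4 on T helper 2 and regulatory T cells, and with Cx3cl1 they form a short stretch of chromosome 8. From the start of Ccl22 to the end of Ccl17 this stretch is 66.4 kb long, and 20.3 kb separate Ccl22 from Cx3cl1 and 28.0 kb Cx3cl1 from Ccl17. It held 4 regions, which covered 11.1% of it. Ccl22 (chr8:97269490-97275599, plus strand) was preceded by a region of 5.2 kb, chr8:97256401-97261600, which ended 7890 bp upstream of its first TSS. This was the widest of the 19 regions, at the 92.2 percentile of all regions in the list, it lay outside annotated genes, and its nearest protein-coding TSS was that of Ccl22. The other region counted for Ccl22 began 19.5 kb downstream and is the 2.6 kb region upstream of Cx3cl1, the only region counted for 2 of the genes.

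Ccl17 (chr8:97334353-97335935, plus strand) was likewise preceded by a region, of 1.2 kb (chr8:97330601-97331800). It ended 2553 bp upstream of the TSS, at the 3.04 percentile of genes with a bare start, and lay outside annotated genes. A second region of 1.2 kb, 14.8 kb downstream, lay in Ciapin1 and 208 bp from a TSS of that gene. Within the stretch of chromosome 8 the mark was thus over the start of Cx3cl1 and absent from the starts and gene bodies of Ccl22 and Ccl17.

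Cxcl13 (chr5:96385945-96390086, plus strand), which directs B cells into lymphoid follicles, lies apart from the CXC cluster of that chromosome. Its only region, chr5:96393001-96396800, was 3.8 kb wide, began 7056 bp downstream of the TSS and lay outside annotated genes. Regions covered 9.50% of the 40 kb around the TSS, which is the median of the 9 genes. The 4 bare genes thus ranged from 4.00% to 14.2% on this scale and overlapped with the 5 covered genes, at 2.50% to 26.5%.

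**Figure D3:**
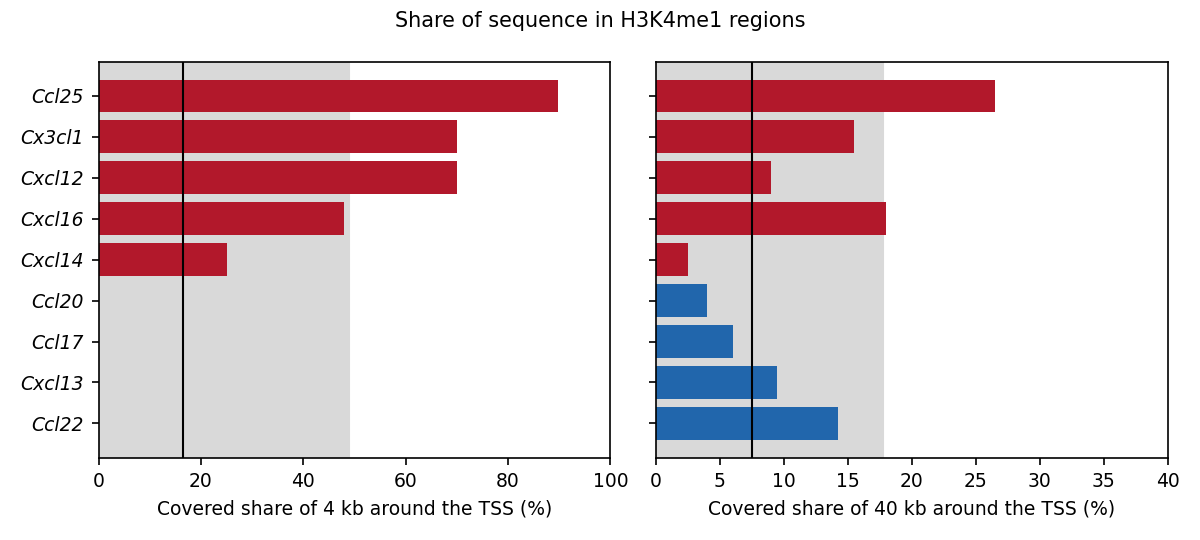
Share of the 4 kb (left) and 40 kb (right) around the most upstream TSS that lies in H3K4me1 enriched regions, in percent, for 9 chemokine genes (red, TSS covered; blue, TSS bare); the black line is the median and the grey band the quartiles of all protein-coding genes. In 4 kb the covered genes range from 25% to 89.8% and the bare genes are at 0, while in 40 kb both kinds overlap.

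The 2 classes rest on how near a region had to be. The covered gene nearest to the limit was Cxcl16, with its protein-coding TSS 86 bp outside a region. Among the bare genes, Ccl20 (2452 bp) and Ccl17 (2553 bp) were the nearest to the 2 kb limit, and with a limit of 5 kb they were flanked. Ccl22 (7890 bp) and Cxcl13 (7056 bp) stayed bare.

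Whether short reads could be placed at these starts was checked with 20 words of 32 bp across the 4 kb around each first TSS. In the genome as a whole, 19 or 20 of the 20 words were unique for each of the 9 genes, bare and covered alike.

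Ccl28, a chemokine of mucosal epithelia, was not found by symbol in the annotation. Its 300-base promoter in RefSeq (GRCm38.p6) matched mm9 at 1 place, on an unplaced contig of 186869 bp, from base 180487 to 180786 on the minus strand. The list places 57 regions on unplaced sequences, which it numbers along joined sequences rather than along contigs, and no region was set against Ccl28. RefSeq promoters of the other members were found for 8 genes. All matched mm9 on the chromosome of the GENCODE gene, and their TSS lay 0 to 24 bp from a GENCODE TSS.

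The 19 regions had a median width of 2200 bp, compared with 1200 bp for the whole list, and covered 41.6 kb in all. Of these regions, 7 overlapped one of the genes and 9 overlapped no annotated gene. For 13 the nearest protein-coding TSS was that of a member, counting the regions at the starts of Ccl25 and Cxcl16 that also held a TSS of a neighbour, while 6 lay nearer to another gene. Those 6 were the 2 upstream of Ccl25, the 3 of Cxcl16 away from its start, and the one at Ciapin1.

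The NF-κB motif and the ISRE bound by interferon regulatory factors (GAAANNGAAA) are described here as examples of sequences recognised by factors that the applied cytokines activate, and other such sequences are not covered. They were searched on both strands, in the promoters from 250 bases before to 50 bases from the first TSS on, and in the regions. Ccl20 was the only one of the 9 genes with an NF-κB match in the promoter, 80 to 71 bases before its TSS, while 4.74% of all protein-coding promoters held one. The match is shown in capitals, with 10 bases on either side.
Ccl20 promoter, NF-κB: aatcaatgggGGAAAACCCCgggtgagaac
An ISRE match was found in the promoter of Cxcl14, while 3.78% of all protein-coding promoters held one.

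In the 19 regions the NF-κB motif matched 12 times and the ISRE 10 times. An NF-κB match was held by 7 of the 19 regions and by 18.0% of the 65650 regions on chromosomes 1 to 19 and X, and an ISRE match by 6 and by 23.7%. As the 19 regions were wider than the list as a whole, these shares are not set against each other. Of the 7 regions with an NF-κB match, 3 belonged to Cxcl16 and 1 each to Cxcl12, Ccl25, Ccl22 and Ccl17. The regions of Ccl20, Cxcl13, Cxcl14 and Cx3cl1 held none. The region upstream of Ccl22 held 4 ISRE matches, 2 of which overlap each other, and 2 NF-κB matches. One match of each kind lies side by side there. They are printed with the NF-κB matches of the region upstream of Ccl17, on the plus strand of mm9. These are the nearest regions of 2 of the 4 bare genes and lie outside genes. The nearest regions of the other bare genes, Ccl20 and Cxcl13, also lie outside genes and held no match of either motif.
Ccl22 upstream region, ISRE at chr8:97259758-97259767: tcaacacagaGAAAGTGAAAgtggagagcc
Ccl22 upstream region, NF-κB at chr8:97259770-97259779: aagtgaaagtGGAGAGCCCCgaggatcaac
Ccl17 upstream region, NF-κB at chr8:97330905-97330914: cccttggggaGGAAAACCCCtcacaaatgc
Ccl17 upstream region, NF-κB at chr8:97331521-97331530: aacccatgtgGGGAGTTTCCaaagccgtac
A match shows the letters only, and binding was not measured in these data.

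The receptors of these chemokines were described in the same way. Of 11 receptor genes, 4 (36.4%) had a covered TSS, which is near the 39.2% of all protein-coding genes, 1 was flanked (9.09%, against 22.9%) and 6 were bare (54.5%, against 37.9%). The classes of single receptors are a description only. Both receptors of Cxcl12 were covered, Cxcr4 at both of its TSS and Ackr3 (annotated as Cxcr7) at both. Ccr9, the receptor of Ccl25, was covered at 1 of 4 TSS, and Ccr10, a receptor of Ccl28, at its single TSS. Ccr4, the receptor of Ccl17 and Ccl22, was flanked at 1739 bp. The receptors Ccr6 (of Ccl20), Cx3cr1 (of Cx3cl1), Cxcr5 (of Cxcl13), Cxcr6 (of Cxcl16), Ccr3 (of Ccl28) and Ackr4 (of Ccl25, annotated as Ccrl1) were bare. The nearest region lay 25.5 kb from a TSS of Ccr6, 30.2 kb from that of Cx3cr1 and 37.7 kb from one of Ackr4. These 3 genes had no region at all by the rule. At least 1 region was counted for 72.7% of the 11 receptors, which is near the 76.4% of all protein-coding genes. Adam10 and Adam17, the proteases that release Cx3cl1 and Cxcl16 from the membrane, were both flanked, at 404 and 995 bp, as were 22.9% of all protein-coding genes.

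Of 21 chemokine genes of the large clusters on chromosomes 11 and 5, 5 were covered (23.8%, against 39.2% of all protein-coding genes), 2 flanked (9.52%, against 22.9%) and 14 bare (66.7%, against 37.9%). The covered ones were Ccl2, Cxcl1, Cxcl2, Cxcl5 and Cxcl10. The 5 of 21 genes stand beside 5 of 9 outside the clusters, and the difference was not tested. None of the 21 cluster genes had a CpG-rich start, compared with 47.6% of all protein-coding genes. The ratio of observed to expected CpG of the covered cluster genes, 0.19 to 0.48, overlapped with that of the bare ones, 0.074 to 0.33. The overlap came from Ccl2 (0.19), and the other 4 covered genes, from Cxcl2 (0.34) to Cxcl10 (0.48), were above every bare one. The medians were 0.37 for covered and 0.20 for bare cluster genes, in the same direction as outside the clusters.

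**Figure D4:**
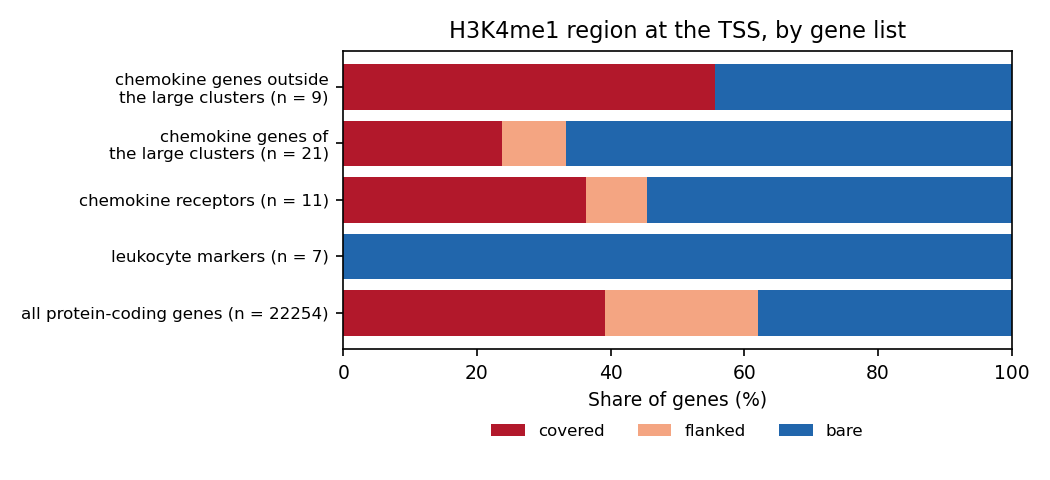
Share of genes in percent whose TSS is covered by, flanked by (within 2 kb) or bare of H3K4me1 enriched regions, for 9 chemokine genes outside the large clusters, 21 of the large clusters, 11 chemokine receptors, 7 leukocyte markers and 22254 protein-coding genes. Covered starts make up 55.6%, 23.8%, 36.4%, 0 and 39.2% of these lists.

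Islets hold endocrine, endothelial, stromal and some immune cells, and the list does not tell from which cells a region came. A mark in fewer cells and a weaker mark in each cell cannot be told apart. Of 10 islet endocrine marker genes, 1 was covered (Ins2), 5 were flanked (Ins1, Pdx1, Nkx6-1, Neurod1 and Mafa) and 4 were bare (Iapp, Gcg, Sst and Isl1), beside 39.2%, 22.9% and 37.9% of all protein-coding genes. A TSS was covered in 3 of 4 endothelial, 2 of 3 stromal and 2 of 4 acinar and duct markers, and none of these was flanked. These lists are short, and no difference from the 39.2% of all genes was tested. All 7 leukocyte markers were bare, among them Ptprc, the gene of CD45, and the nearest region to a TSS was 8.83 kb away, at Csf1r. The part of each cell type in the regions of the chemokine genes was not tested.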

How the data were processed

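H3K4me1 ChIP-seq of 1 pooled library of cytokine treated islets was used. The authors mapped reads to NCBI37/mm9 with bowtie2 (version 2.2.1 in the submitters' processing notes) and identified enriched regions with ChromHMM, whose version is not given in the sources used here. The deposited file gives the chromosome, start and end of each region and no other values, on a grid of 200 bp. Whether it precedes the authors' filter on weakly enriched loci is not stated.

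All deposited regions entered, counted from base 1, and all on named chromosomes fitted within the mm9 reference. Overlapping gene records of 1 symbol and strand were joined. Distances run from a TSS to the nearest region edge. Percentiles are ranks among all protein-coding genes, or all regions, with ties at their middle rank. The depth is unknown and there is 1 library, so no test was run and no interval is given. Members, lists and motifs were chosen with earlier results of these data known; the motifs, the CpG windows and the check of short words were added after the files were seen. All 10 members, the fixed receptor and protease lists and hosts or neighbours of counted regions were named. 1 further motif was searched and is not reported here. Made-up regions were planted at 600 short annotated genes with a single TSS, and all their classes were recovered. So were 300 motif sites planted in made-up sequences. Genes with several TSS were not part of this check. Alternatives were other region widths, merging, distances, TSS sets and midpoints. Python 3.11.15, numpy 2.4.6, numba 0.67.0 and matplotlib 3.10.9 were used.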

Additional observations from a re-analysis of the deposited data

How the results depend on the processing

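Of 55 values under 10 alternatives of the 6 counts and medians over the 9 genes, 47 were within 1.5 times the reported value and 8 were not. The number of genes with a covered TSS was 5 throughout, except 4 with TSS of protein-coding transcripts only or with only the most upstream TSS. Both settings made 1 gene, Cxcl16, flanked in place of 0 genes, since its coding TSS lies just outside a region. With a flanking limit of 5 kb, 2 genes were flanked and 2 bare, which are Ccl20 and Ccl17 against Ccl22 and Cxcl13. Counting regions within 10 kb of a TSS gave a median of 1 region per gene and a median covered share of 14.7% of 20 kb, and within 50 kb it gave 42 regions and a median of 5 per gene, by construction of the wider or narrower window. No paired analysis was possible because only 1 library was profiled, and no replicate could be left out. As no depth is given, no result can be set against it.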
